A study of Homo sapiens with 9 samples.

Results

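The cytosolic ribosome is built from ribosomal RNA and ribosomal proteins. RPL genes encode proteins of the large subunit, which joins amino acids, and RPS genes encode proteins of the small subunit, which reads the mRNA. Nearly every one of them is needed in a single copy per ribosome, and cells adjust their synthesis together, largely through translation of the mRNAs. Many of these mRNAs begin with a terminal oligopyrimidine tract (TOP), a C followed by a run of C and T, through which mTORC1 and LARP1 govern their translation. Several proteins have a paralogue encoded by a separate gene, which can replace the canonical protein in some tissues or has taken on another task.

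The ribosomal protein genes were followed in ACC-MESO-1 cells, a human cell line established from mesothelioma, the cancer that arises in the pleura. Cells infected with shLSD1 #1 (replicates 4 to 6) or shLSD1 #2 (replicates 7 to 9), hairpins against the histone demethylase LSD1, were compared with cells carrying a control shRNA (replicates 1 to 3), on 9 Clariom S arrays in all. Members were the named transcript clusters whose symbol has the form of an RPL, RPS, RPLP or RPSA gene, without the Y-linked copies and RPS6K kinases. This gave 53 genes among 17687 named genes and 21448 clusters, 33 of the large and 20 of the small subunit. Of 85 RefSeq genes that meet the rule, 32 had no named cluster and are not analysed here, among them RPLP0, RPLP2, RPSA, RPL3, RPL5, RPL10, RPL13A, RPL39 and RPS3. Of the 53, 8 encode paralogues: RPL3L, RPL7L1, RPL10L, RPL22L1, RPL26L1, RPL36AL, RPL39L and RPS27L. Values are log2 signals, and a change is the mean of 3 hairpin arrays minus the mean of 3 control arrays. A member passed the test when limma's p-value, with Benjamini-Hochberg adjustment across the 21448 clusters, was under 0.05. Nothing in the labels ties a replicate to its own culture, so p-values measure the spread between arrays, which may be technical, and in cultures measured in bulk fewer cells with a transcript and less of it per cell cannot be told apart.

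As for the arrays themselves, medians lay between 6.39 and 6.43. The 4 hybridization spike-ins do not come from the cells. Their mean was 11.2 to 11.4 on the control arrays and on shLSD1 #2 replicates 7 and 9. It was 10.8 to 10.9 on all shLSD1 #1 arrays and shLSD1 #2 replicate 8. So shLSD1 #1 and the low class can be told apart only through shLSD1 #2 replicate 8, and a fit that blocks on the class leans on that array. For shLSD1 #2 against control, the blocked fit is the same as leaving out replicate 8, so these are 1 check. For shLSD1 #1 the blocked fit adds the difference between replicate 8 and replicates 7 and 9. The share of all clusters past the test with shLSD1 #1 then fell from 15.8% to 1.86%. The values of shLSD1 #1 replicate 5 and shLSD1 #2 replicate 9 had the widest spread over clusters, with an SD of 3.42 and 3.43. The control arrays had 3.39 to 3.41. On shLSD1 #1 replicates 4 and 6 and shLSD1 #2 replicates 7 and 8 the spread was narrower, at 3.33 to 3.36. Of 8 mesothelial markers, MSLN, KRT8 and KRT18 exceeded the negative controls (the 95th percentile of negative control probes) on all 9 arrays, and CALB2 on none. The list also held WT1, UPK3B, KRT19 and PDPN. By group, 3 of the 8 exceeded them on all 3 control arrays, 4 on all shLSD1 #1 arrays and 5 on all shLSD1 #2 arrays. With each hairpin, limma called 2 of the 8 higher and 1 lower, which is 37.5%, beside 15.8% and 13.2% of all clusters. Of 3 leukocyte, 3 endothelial and 4 lung epithelial markers on the array, 0 exceeded them on all 3 arrays of any group.

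Most ribosomal protein transcripts were strong and moved little. The mean difference of the members from their control means was -0.17 ± 0.06 with shLSD1 #1 and -0.08 ± 0.02 with shLSD1 #2 on the log2 scale, and the control arrays had an SD of 0.01 around 0 (SD over array means, n = 3 each). These mean differences amount to 11.1% and 5.53% less signal. The lowest 9-array mean of a member was 4.49 and the highest 17.3, and 26 members had a control mean of 16 or more. A total of 52 members exceeded the negative controls on all 9 arrays. The exception was RPL10L, the copy of RPL10 expressed in testis, which lay below them on all 9.

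The members' median change was -0.13 with shLSD1 #1 and -0.06 with shLSD1 #2, where all clusters had medians of 0.03 and 0.02. Changes below 0 were found in 41 of 53 members (77.4%) with shLSD1 #1 and 38 of 53 (71.7%) with shLSD1 #2, against 46.7% and 47.1% of all clusters. All clusters include many of low signal: array medians were 6.39 to 6.43, and the median 9-array mean of members was 15.9. Clusters of like signal were not set apart here or below, so whether strong clusters in general moved this way was not tested. The contrasts share the same 3 control arrays. With a second quantile normalization of the deposited values, the medians were -0.07 and -0.02. Over the 95% intervals of single members, 34 of 53 lay wholly within 0.5 of 0 for shLSD1 #1 and 41 of 53 for shLSD1 #2.

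**Figure D1:**
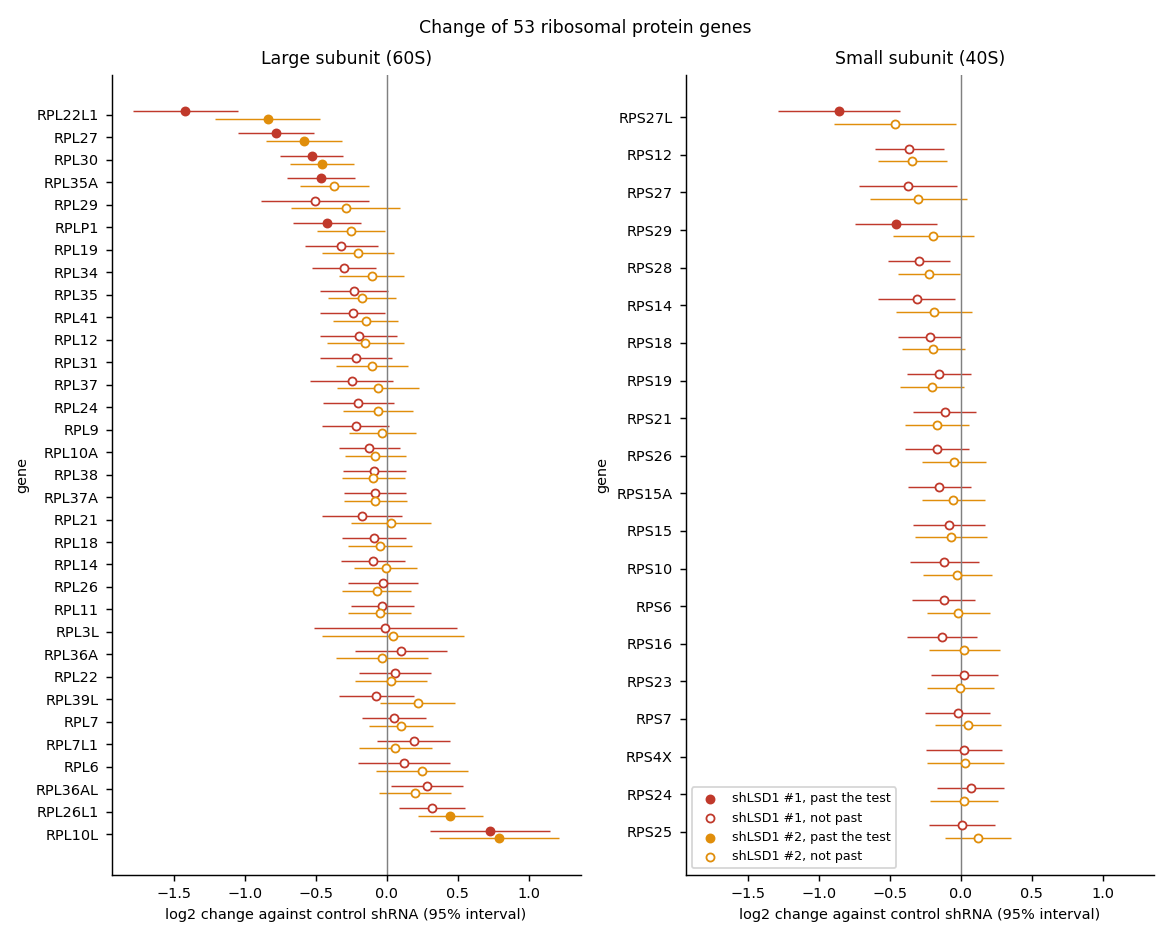
Log2 change of each of the 53 members (rows) with shLSD1 #1 and shLSD1 #2 against control shRNA, with 95% intervals from limma (n = 3 arrays per group). Filled points passed the adjusted threshold. Most points lie just left of 0, RPL22L1 lies farthest left at -1.42 and -0.84, and RPL26L1 and RPL10L lie farthest right, RPL10L with all signals below the negative controls.

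By limma, 8 members passed the test with shLSD1 #1, 7 lower and 1 higher, beside 7.94% of all clusters called lower and 7.85% called higher. With shLSD1 #2, 5 members passed, 3 lower and 2 higher, beside 6.63% and 6.56% of all clusters. In either direction this was 15.1% of members, near the 15.8% of all clusters, with shLSD1 #1, and 9.43% of members, under the 13.2% of all clusters, with shLSD1 #2. With both hairpins 3 members were lower (RPL22L1, RPL27 and RPL30) and 1 higher (RPL10L), against 5.32% and 5.11% of clusters. In all, 9 members passed with either hairpin and 44 with neither, beside 3974 and 17474 of the 21448 clusters. These counts rest strongly on how the spread is modelled. Members had a median within-group SD of 0.08, against 0.22 over all clusters, and limma's prior without trend assumes 1 typical spread for all clusters. With a prior that follows signal level, robustly estimated, 23 members were lower and 3 higher with shLSD1 #1, beside 10.4% and 10.5% of clusters, and 13 lower and 2 higher with shLSD1 #2, beside 8.79% and 9.06%. When blocked on spike-in class, 0 members passed for shLSD1 #1 (1.86% of clusters did) and 2 for shLSD1 #2 (9.05% of clusters), with 5 and 8 members at an unadjusted p under 0.05 in limma. The share of all clusters at such a p was not worked out for the blocked fit. Without the block it was 29.1% with shLSD1 #1 and 26% with shLSD1 #2.

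Counts that need no model were as follows. All 3 shLSD1 #1 arrays lay below all 3 control arrays for 28 of 53 members, against 16.8% of clusters, and above them for 3, against 18.2%. For shLSD1 #2 the counts were 19 below, against 15.3%, and 7 above, against 16.8%. All 6 hairpin arrays lay below all control arrays for 19 members, against 11.3% of clusters.

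The member that changed most was RPL22L1, the paralogue of RPL22. Its log2 signal was 11.49, 11.53 and 11.26 in shLSD1 #1 arrays and 11.91, 11.95 and 12.16 in shLSD1 #2 arrays, against 12.54, 12.86 and 13.14 in control arrays. Every hairpin array lay below every control array, and the shLSD1 #1 arrays below the shLSD1 #2 arrays. RPL22L1 changed by -1.42 ± 0.16 with shLSD1 #1 (SE, n = 3, limma adjusted p = 0.000443), which is 2.67-fold lower, and by -0.84 ± 0.16 with shLSD1 #2 (adjusted p = 0.0087), which is 1.79-fold lower. Both calls held with any single array left out. When blocked on spike-in class, the changes were -1.33 (adjusted p = 0.081) and -0.81 (adjusted p = 0.0353), and with the high spike-in arrays alone shLSD1 #2 had adjusted p = 0.0772. RPL22 itself, an RNA-binding protein of the large subunit, had 16.28, 16.32 and 16.30 in shLSD1 #1 arrays, 16.21, 16.42 and 16.19 in shLSD1 #2 arrays and 16.14, 16.27 and 16.34 in control arrays. These groups overlapped, and the 95% intervals of its change were -0.20 to 0.31 and -0.22 to 0.28.

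RPS27L, the paralogue of the small-subunit protein RPS27 and a known target of p53, also fell with shLSD1 #1. Its signal was 11.33, 11.70 and 10.94 in shLSD1 #1 arrays and 11.58, 11.94 and 11.65 in shLSD1 #2 arrays, against 12.16, 12.07 and 12.33 in control arrays. All hairpin arrays lay below the control arrays, with a wide spread among the shLSD1 #1 arrays. The change was -0.86 ± 0.19 with shLSD1 #1 (SE, n = 3, limma adjusted p = 0.0141) and -0.46 ± 0.19 with shLSD1 #2 (adjusted p = 0.159). Leaving out control replicate 3 ended the call for shLSD1 #1 (adjusted p = 0.0536) and when blocked on spike-in class (adjusted p = 0.139). RPS27 had changes of -0.37 and -0.30 and did not pass (adjusted p = 0.141 and 0.261).

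RPL26L1, a close relative of RPL26, moved the other way. It had 12.53, 12.58 and 12.62 in shLSD1 #1 arrays and 12.66, 12.73 and 12.73 in shLSD1 #2 arrays, against 12.16, 12.29 and 12.33 in control arrays. All 6 hairpin arrays were above the control arrays. RPL26L1 rose by 0.45 ± 0.10 with shLSD1 #2 (SE, n = 3, limma adjusted p = 0.0186), which is 1.36-fold, and with shLSD1 #1 the change was 0.32 ± 0.10 (adjusted p = 0.0656). The call of RPL26L1 with shLSD1 #2 ended without control replicate 1, control replicate 2, shLSD1 #2 replicate 8 or shLSD1 #2 replicate 9 (adjusted p between 0.0505 and 0.0713). The blocked fit for shLSD1 #2 repeats the one without replicate 8 (0.0586). RPL26, which lines the tunnel exit, had changes of -0.03 and -0.07 with overlapping groups.

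The other paralogues gave less. RPL36AL had changes of 0.28 and 0.20 (adjusted p = 0.13 and 0.311), with all hairpin arrays, at 14.07 to 14.38, above the control arrays at 13.96 to 14.06, and its near-identical partner RPL36A had 0.10 and -0.03. RPL7L1, a relative of RPL7, had 0.19 and 0.06, and RPL7 had 0.05 and 0.10. RPL39L, known from testis and tumours, had -0.07 and 0.22, and RPL3L, the striated muscle form of RPL3, had -0.01 and 0.04. None of these passed for either hairpin in limma. RPL10L passed with both hairpins by limma, with 4.51 to 4.93 in shLSD1 #1 arrays and 4.68 to 4.96 in shLSD1 #2 arrays, against 3.76 to 4.37 in control arrays. Because all 9 values were below the negative controls, whose percentile was 6.93 to 7.54, no fold is given. The shLSD1 #1 call of RPL10L ended without control replicate 1 or 3 or shLSD1 #1 replicate 4 or 6 (adjusted p between 0.0673 and 0.098), and the shLSD1 #2 call without control replicate 1 or 3 or shLSD1 #2 replicate 8 (between 0.0785 and 0.081). When blocked on spike-in class, the call of RPL10L with shLSD1 #1 ended (adjusted p = 0.616). For RPL10L with shLSD1 #2 the blocked fit repeats the one without replicate 8 (adjusted p = 0.081).

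**Figure D2:**
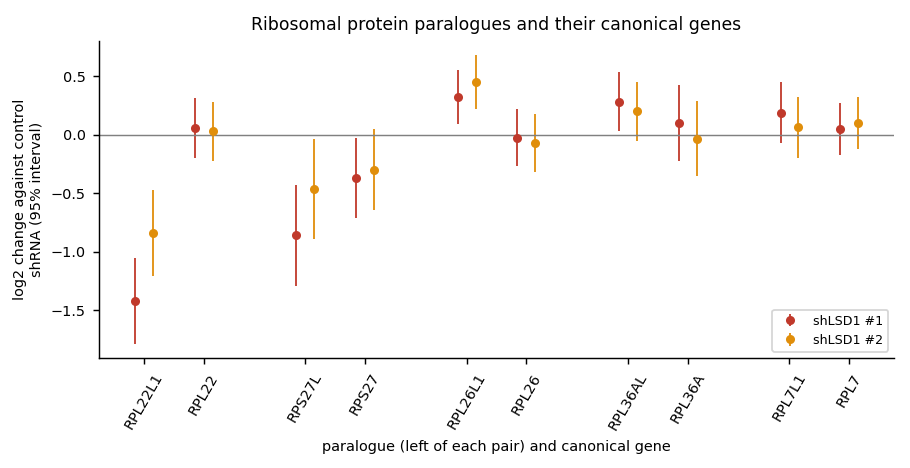
Log2 change against control shRNA, with 95% intervals (limma, n = 3 arrays per group), of 5 paralogues and, to the right of each, the canonical gene. RPL22L1 and RPS27L lie below 0 and RPL26L1 above 0, while RPL22 and RPL26 lie near 0.

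The TOP feature was read from the sequence at the annotated transcription starts. Windows from RefSeq (GRCh38.p14) were available for 47 of 53 members; RPL3L, RPL7, RPL30, RPL37, RPL39L and RPS15A had none. In 31 of the 47 members (66.0%) the first transcribed base on the gene's own strand was a C followed by at least 4 bases that were each C or T, against 5.14% of 27305 genes with a window. A gene with several annotated starts counted if any had it. The share was 30 of 41 among canonical members and 1 of 6 among paralogues. Of the 8 members past the test that had a window, 3 had it, and of the 39 not past the test, 28 did. Counting runs that began within 10 bases either side of the start, 39 of 47 members (83.0%) had one, against 38.4% of all genes. By this wider count, 3 of the 8 past the test had one and 36 of the 39 not past it. The paralogues RPL22L1, RPS27L, RPL26L1 and RPL10L are among those 8, so passing the test and being a paralogue are mixed in this comparison. The windows run from 15 bases before to 15 bases from the annotated start for the 3 paralogue pairs in which the paralogue passed the test and for the other members past it whose window was available, RPL10L aside. Capitals mark the C and the pyrimidine run from the first transcribed base, and a window without capitals has none at that position.
RPL22L1 (chr3:170870181-170870210, minus strand): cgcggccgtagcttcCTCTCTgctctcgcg
RPL22 (chr1:6199581-6199610, minus strand): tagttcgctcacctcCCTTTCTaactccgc
RPS27L (chr15:63157463-63157492, minus strand): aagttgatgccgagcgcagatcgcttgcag
RPS27 (chr1:153990747-153990776, plus strand): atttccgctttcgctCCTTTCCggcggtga
RPL26L1, first start (chr5:172958714-172958743, plus strand): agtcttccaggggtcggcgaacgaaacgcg
RPL26L1, other start (chr5:172958865-172958894, plus strand): ggcggggcggcggccacaaacccgcaggca
RPL26 (chr17:8383179-8383208, minus strand): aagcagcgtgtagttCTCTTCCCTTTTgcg
RPL27 (chr17:42998404-42998433, plus strand): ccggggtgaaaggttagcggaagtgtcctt
RPL35A (chr3:197950175-197950204, plus strand): cggcggggcctcgtcCTTCTCTTaccgcca
RPLP1 (chr15:69452803-69452832, plus strand): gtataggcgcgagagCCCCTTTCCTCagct
RPS29 (chr14:49598696-49598725, minus strand): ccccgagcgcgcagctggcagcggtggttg

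In the RPL22 pair both genes have the run, RPL22L1 a run of 6 bases and RPL22 of 7, and only RPL22L1 passed the test. In the RPL26 and RPS27 pairs the canonical gene has it and the paralogue does not. These are letters at annotated starts, which may not be the starts used in these cells, and the arrays measured transcript level, not translation.

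Among canonical large-subunit proteins, RPL27 showed the largest change. RPL27, one of the genes mutated in Diamond-Blackfan anaemia, an inherited failure of red cell production, had 12.39, 12.57 and 12.36 in shLSD1 #1 arrays and 12.72, 12.48 and 12.72 in shLSD1 #2 arrays, against 13.30, 13.23 and 13.14 in control arrays. The hairpin arrays all lay below the control arrays and overlapped each other. RPL27 fell by 0.78 on the log2 scale with shLSD1 #1 (SE 0.12, n = 3, limma adjusted p = 0.0021) and by 0.58 with shLSD1 #2 (SE 0.12, adjusted p = 0.011), and both calls held with any single array left out. When blocked on spike-in class, the shLSD1 #1 change was -0.54 (adjusted p = 0.251) and that of shLSD1 #2 -0.50 (adjusted p = 0.043, or 0.0698 with the high spike-in arrays alone).

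RPL30, which lies at the interface of the subunits, was 15.91, 15.80 and 15.90 in shLSD1 #1 arrays and 15.97, 15.88 and 15.98 in shLSD1 #2 arrays, against 16.41, 16.38 and 16.41 in control arrays. The groups were clearly apart, with an SD of 0.01 among control arrays. The change was -0.53 ± 0.10 with shLSD1 #1 (SE, n = 3, limma adjusted p = 0.00622) and -0.46 ± 0.10 with shLSD1 #2 (adjusted p = 0.0153). The shLSD1 #2 call ended without control replicate 1, control replicate 3 or shLSD1 #2 replicate 8 (adjusted p between 0.0501 and 0.0552). The blocked fit for shLSD1 #2 repeats the last of these (0.0552). When blocked on spike-in class, the shLSD1 #1 call ended (adjusted p = 0.318).

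RPL35A, another Diamond-Blackfan gene, had 14.91, 14.99 and 14.91 in shLSD1 #1 arrays and 15.07, 14.89 and 15.13 in shLSD1 #2 arrays, against 15.43, 15.36 and 15.40 in control arrays. Again no hairpin array reached the control arrays. RPL35A fell by 0.46 with shLSD1 #1 (SE 0.11, n = 3, limma adjusted p = 0.0171) and had a change of -0.37 with shLSD1 #2 (adjusted p = 0.0509). The shLSD1 #1 call ended without control replicate 1, control replicate 3, shLSD1 #1 replicate 4 or shLSD1 #1 replicate 6 (adjusted p between 0.0525 and 0.0566), and when blocked on spike-in class (0.584). RPL29, a small protein of the large subunit, had changes of -0.50 and -0.29, with overlapping groups and adjusted p of 0.0776 and 0.335. RPL6, another large-subunit protein, had 0.12 and 0.25, the most positive changes of a canonical member, and did not pass (adjusted p = 0.633 and 0.326).

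The stalk of the large subunit recruits elongation factors. Of its 4 listed genes, RPLP1 and RPL12 were measured. RPLP1, an acidic stalk protein, had 14.77, 14.76 and 14.80 in shLSD1 #1 arrays and between 14.83 and 15.01 in the 3 shLSD1 #2 arrays, against 15.26, 15.22 and 15.12 in control arrays. Each hairpin group lay below the control arrays. The change was -0.42 ± 0.11 with shLSD1 #1 (SE, n = 3, limma adjusted p = 0.0245) and -0.25 ± 0.11 with shLSD1 #2 (adjusted p = 0.166). The shLSD1 #1 call ended without control replicate 1, control replicate 2, or shLSD1 #1 replicate 4, 5 or 6 (adjusted p between 0.0567 and 0.0825) and when blocked on spike-in class (0.616). RPL12, at the base of the stalk, had -0.20 and -0.15 (adjusted p = 0.323 and 0.495). RPL11, which with RPL5 and 5S RNA forms the particle that binds MDM2, had -0.03 and -0.05, with 95% intervals of -0.25 to 0.19 and -0.27 to 0.17.

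**Figure D3:**
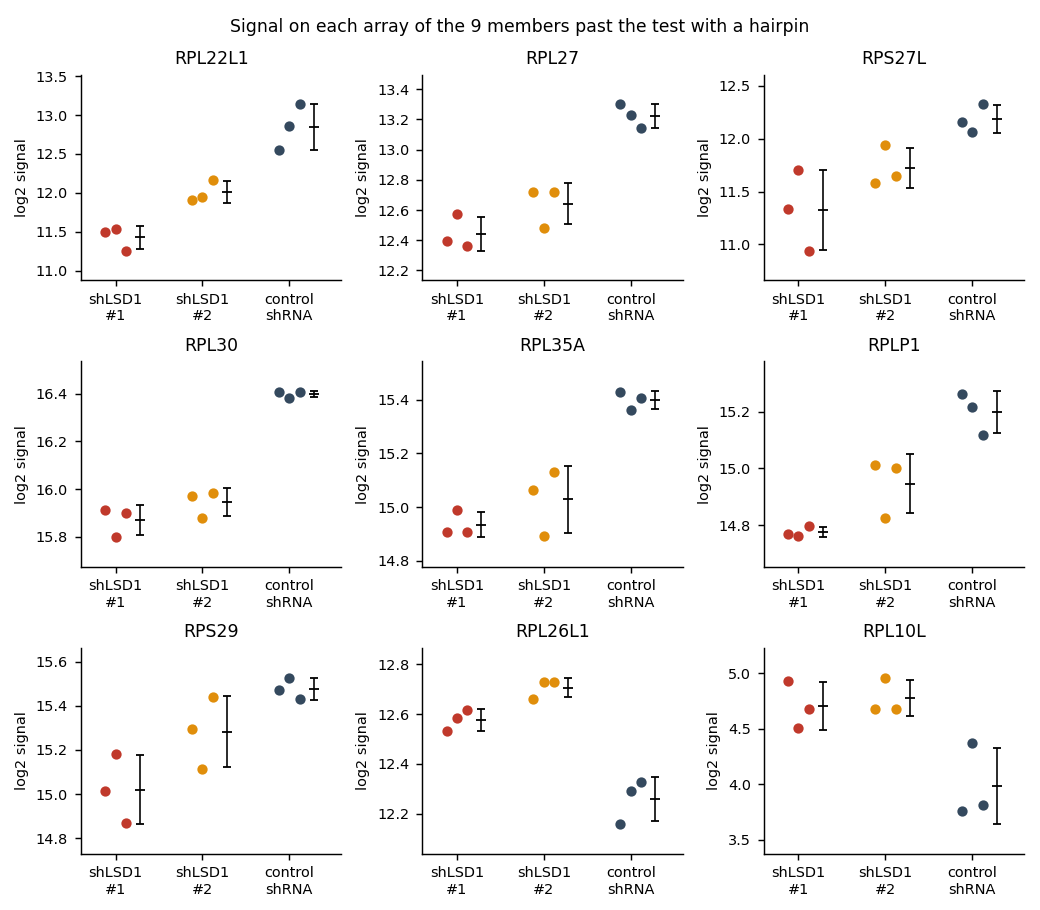
Log2 signal on each array (points) of the 9 members that passed the test with a hairpin, with mean and SD of each group (bars, n = 3). The hairpin arrays lie below the control arrays in 6 panels, above them in the RPL26L1 and RPL10L panels, and in the RPS29 panel 1 shLSD1 #2 array reaches the control range. Each panel has its own scale.

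The small subunit had 2 of 20 members (10%) past the test with shLSD1 #1, RPS27L and RPS29, and 0 with shLSD1 #2, beside 15.8% and 13.2% of all clusters. An unadjusted p under 0.05 in limma was found for 6 of 20 with shLSD1 #1 and 3 of 20 with shLSD1 #2. Over all clusters 29.1% had such a p with shLSD1 #1 and 26% with shLSD1 #2. RPS29, a zinc-binding protein of the small-subunit head and a Diamond-Blackfan gene, had 15.01, 15.18 and 14.87 in shLSD1 #1 arrays and 15.30, 15.12 and 15.44 in shLSD1 #2 arrays, against 15.47, 15.53 and 15.43 in control arrays. The shLSD1 #1 arrays lay apart from the control arrays, and 1 shLSD1 #2 array reached their range. The change was -0.46 ± 0.13 with shLSD1 #1 (SE, n = 3, limma adjusted p = 0.0393) and -0.19 ± 0.13 with shLSD1 #2 (adjusted p = 0.403). The shLSD1 #1 call ended without any 1 of the control replicates, without shLSD1 #1 replicate 4 or 6, without shLSD1 #2 replicate 7 (adjusted p between 0.0595 and 0.124), and when blocked on spike-in class (0.743).

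RPS6, the substrate of the S6 kinases, had 16.02, 16.13 and 16.04 in shLSD1 #1 arrays and 16.14, 16.20 and 16.16 in shLSD1 #2 arrays, against 16.15, 16.21 and 16.18 in control arrays. Its changes of -0.12 and -0.02 had 95% intervals of -0.34 to 0.10 and -0.24 to 0.20. RPS19, the gene most often mutated in Diamond-Blackfan anaemia, had changes of -0.15 and -0.20 (adjusted p = 0.366 and 0.248), with hairpin arrays at 15.18 to 15.37 below the control arrays at 15.42 to 15.51. RPS12, of the small-subunit head, had -0.36 and -0.34, with all hairpin arrays below the control arrays and adjusted p of 0.0521 and 0.0741. RPS12 was picked out once its values were known.

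The genes grouped by place in the ribosome gave few calls. At the tunnel exit, 6 of 10 listed genes were measured, and none passed with shLSD1 #1 or shLSD1 #2 in limma, with medians of -0.15 and -0.10. An unadjusted p under 0.05 was found for 1 of the 6 with shLSD1 #1 and for 0 with shLSD1 #2, beside 29.1% and 26% of all clusters. In the small-subunit head, 9 of 14 were measured. RPS29 was lower with shLSD1 #1, which is 11.1% of the 9, and none passed with shLSD1 #2, beside 15.8% and 13.2% of all clusters. An unadjusted p under 0.05 in limma was found for 3 of the 9 with shLSD1 #1 and 2 with shLSD1 #2, beside 29.1% and 26% of clusters. The medians were -0.15 and -0.19. Of 19 Diamond-Blackfan genes 16 were measured, and RPL27, RPL35A and RPS29 were lower with shLSD1 #1 and RPL27 with shLSD1 #2, beside 7.94% and 6.63% of all clusters. Their medians were -0.16 and -0.09.

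The subunits moved by similar amounts. The large-subunit members averaged -0.19, -0.10 and -0.19 relative to their control means on the shLSD1 #1 arrays and -0.07, -0.08 and -0.04 on the shLSD1 #2 arrays, against -0.02, 0.01 and 0.01 on the control arrays. The small-subunit members averaged -0.21, -0.11 and -0.24 on the shLSD1 #1 arrays and -0.11, -0.14 and -0.08 on the shLSD1 #2 arrays, against -0.00, -0.02 and 0.02 on the control arrays. Each subunit was lower on every hairpin array than on any control array. The mean large minus small difference was 0.03 ± 0.02 with shLSD1 #1 and 0.05 ± 0.02 with shLSD1 #2, against an SD of 0.03 around 0 among control arrays (n = 3 each). These values rest on RPL10L, which lay below the negative controls. Without it the difference was 0.0030 ± 0.016 with shLSD1 #1 and 0.020 ± 0.011 with shLSD1 #2, against an SD of 0.016 among control arrays, and each hairpin group overlapped the control arrays. Without the 8 paralogues the sign turned, to -0.05 ± 0.03 and -0.02 ± 0.01. Medians for the large and the small subunit were -0.12 and -0.14 with shLSD1 #1 and -0.06 and -0.06 with shLSD1 #2. Within shLSD1 #1, replicate 5, an array of wide spread, stood at -0.10 over all members, and replicates 4 and 6 at -0.20 and -0.21. Within shLSD1 #2, replicate 9, the other such array, stood at -0.06, and replicates 7 and 8 at -0.09 and -0.10. Whether the members' changes follow the spread of the arrays was not tested.

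**Figure D4:**
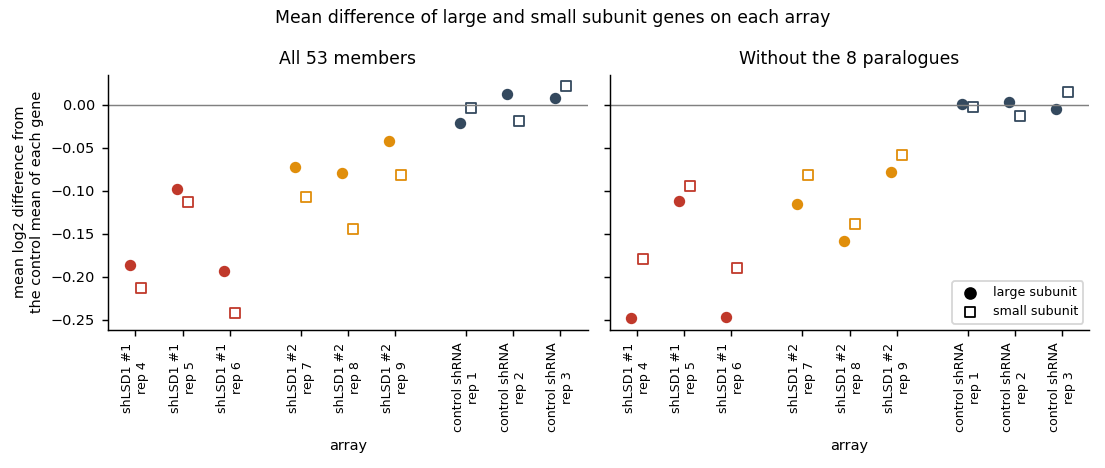
Mean log2 difference of large-subunit (circles) and small-subunit (squares) members from each gene's control mean, for every array, over all 53 members (left) and without the 8 paralogues (right). Every hairpin array lies below the control arrays, and circles lie above squares on the hairpin arrays at left and below them at right.

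By signal level, the 52 members above the negative controls fell into 3 bins. The 10 with a control mean under 14, of which 7 are paralogues, had changes between -1.42 and 0.32 with shLSD1 #1 and between -0.84 and 0.45 with shLSD1 #2. The 16 with a control mean from 14 to under 16, none of them paralogues, had changes between -0.46 and 0.12 and between -0.37 and 0.25, and 3 of them were lower with shLSD1 #1. The 26 with a control mean of 16 or more, also without a paralogue, had changes between -0.53 and 0.07 and between -0.46 and 0.05, with RPL30 lower for each hairpin. The lowest bin thus held the widest range. With shLSD1 #1 the 2 upper bins had similar ranges, but medians of -0.22 from 14 to under 16 and -0.11 from 16 up. With shLSD1 #2 these medians were -0.12 and -0.06. Signal level and paralogue status cannot be told apart in the lowest bin. Only 130 of 21448 clusters had a 9-array mean of 16 or more. Whether signals near the top of the scale understate changes was not tested. The cluster named RPL21 carries an identifier of chromosome 10, whereas RefSeq places RPL21 on chromosome 13, the sole member with such a mismatch, so it may read a copy of the gene. Its groups overlapped, with changes of -0.18 and 0.03. Ribosomal protein genes have many processed copies in the genome, and probes may share signal with them.

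**Figure D5:**
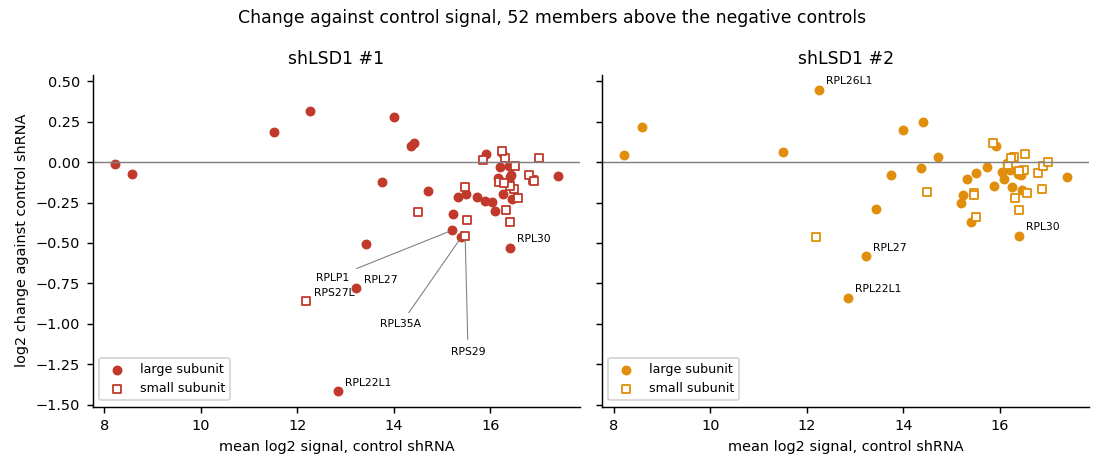
Log2 change against control shRNA (vertical axis) by mean log2 control signal (horizontal axis) for the 52 members above the negative controls, with members past the test named. Members with a signal of 16 or more lie between -0.53 and 0.07 with shLSD1 #1, and RPL22L1, RPL27 and RPS27L have the lowest changes there, at signals of 12 to 14.

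The hairpins were not told apart. By limma 0 members differed between shLSD1 #1 and shLSD1 #2, as did 0% of clusters. An unadjusted p under 0.05 was found for 2 of 53 members, RPL22L1 and RPL39L, beside 7.87% of all clusters. RPL22L1 was lower with shLSD1 #1 than with shLSD1 #2 by a difference of -0.58 ± 0.16 (SE, n = 3, adjusted p = 0.483), with a 95% interval of -0.95 to -0.21. Changes for 42 of 53 members were more negative with shLSD1 #1 (79.2%), with a median difference of -0.08, against 49.8% of all clusters and a median of 0.00093. For 47 members that difference had a 95% interval between -0.5 and 0.5.

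Genes with roles around the ribosome were set beside its proteins. FAU, whose product is cut to give a small-subunit protein, has a name outside the rule. It had 13.17, 13.27 and 13.17 in shLSD1 #1 arrays and 13.59, 13.40 and 13.66 in shLSD1 #2 arrays, against 13.71, 13.78 and 13.73 in control arrays, and all hairpin arrays lay below the control arrays. FAU fell by 0.54 with shLSD1 #1 (SE 0.11, n = 3, limma adjusted p = 0.00942) and had -0.19 with shLSD1 #2 (adjusted p = 0.335). When blocked on spike-in class, its shLSD1 #1 call ended (adjusted p = 0.492).

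Translation factors whose mRNAs also carry TOP tracts did not pass: 0 of the 12 measured, of 17 listed, with either hairpin in limma, with medians of 0.02 and 0.04. In each contrast 1 of the 12 had an unadjusted p under 0.05, beside 29.1% and 26% of all clusters. Of 22 measured ribosome assembly factors, 2 were higher and 3 lower with shLSD1 #1, and 1 was higher with shLSD1 #2, with medians of -0.02 and 0.06. These are 22.7% and 4.55% of the 22, beside 15.8% and 13.2% of all clusters. The higher ones were NAT10, an RNA acetyltransferase, at 0.72, and RRS1 at 0.51 with shLSD1 #1, and NOP14 at 0.50 with shLSD1 #2. The lower ones were EMG1, an rRNA methyltransferase, at -0.54, NOB1 at -0.45 and NIP7 at -0.44, and NOB1 and NIP7 were picked out once their values were known, without a check that leaves out arrays. The NAT10 call ended without control replicate 1, control replicate 3, shLSD1 #1 replicate 4 or shLSD1 #1 replicate 6 (adjusted p between 0.0608 and 0.0696). The RRS1 call ended without control replicate 2 or 3 or shLSD1 #1 replicate 4 or 6 (between 0.0776 and 0.104), and the NOP14 call without any single array other than shLSD1 #2 replicate 8 (between 0.0551 and 0.136).

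Of 10 measured RNA polymerase I genes, 0 passed with shLSD1 #1 in limma, beside 15.8% of all clusters. With that hairpin 2 had an unadjusted p under 0.05, beside 29.1% of clusters. Only POLR1B, below the negative controls on all 9 arrays, passed with shLSD1 #2, which is 10% of the list beside 13.2% of clusters. The 74 mitochondrial ribosomal protein genes, which serve a separate ribosome, had medians of -0.06 and 0.07, with 4 higher and 5 lower with shLSD1 #1 and 5 higher and 2 lower with shLSD1 #2. These are 12.2% and 9.46% of the 74, under the 15.8% and 13.2% of all clusters. MRPL39 rose by 0.74 and 0.78 (adjusted p = 0.00402 and 0.00345), and MRPS27 fell by 0.90 and 0.58 (adjusted p = 0.00239 and 0.0246), and the MRPS27 call for shLSD1 #2 ended without control replicate 1 or 2 or shLSD1 #2 replicate 8 or 9 (adjusted p between 0.0583 and 0.0872). For MRPS27 with shLSD1 #2 the blocked fit repeats the one without replicate 8 (adjusted p = 0.0872). The high spike-in arrays alone, which also lack replicate 8, gave 0.0727.

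Regulators of translation included some of larger change. Of 16 genes, 4 were lower and 2 higher with shLSD1 #1, and 3 were lower and 1 higher with shLSD1 #2. Over all clusters 15.8% were called with shLSD1 #1 and 13.2% with shLSD1 #2. DDIT4 and SESN2, stress-induced inhibitors of mTORC1, changed by -2.33 and -0.76 with shLSD1 #1 (adjusted p = 0.000247 and 0.00134) and by -2.42 and -0.91 with shLSD1 #2 (adjusted p = 0.000199 and 5e-04). SESN2 had 8.86, 8.92 and 8.70 in shLSD1 #1 arrays and 8.73, 8.61 and 8.70 in shLSD1 #2 arrays, against 9.61, 9.57 and 9.58 in control arrays, with no overlap. EIF4EBP1, the mTORC1 substrate that blocks the cap-binding factor, changed by -0.67 with shLSD1 #1 (adjusted p = 0.00869) and had -0.33 with shLSD1 #2 (adjusted p = 0.15). RPS6KB2, an S6 kinase, changed by -0.71 with shLSD1 #1 (adjusted p = 0.0183) and had -0.48 with shLSD1 #2, and the call ended without control replicate 1 or 2 or shLSD1 #1 replicate 4 or 6 (adjusted p between 0.0574 and 0.0686). Picked out once their values were known, and without a check that leaves out arrays, EIF4E, the cap-binding factor itself, rose by 0.45 and 0.47 (adjusted p = 0.0194 and 0.0181), EIF2AK4 rose by 0.53 with shLSD1 #1, and MTOR was lower with shLSD1 #2 (adjusted p = 0.0437), where 2 of 3 arrays exceeded the negative controls, so its size is not given. MYC and LARP1 did not pass with either hairpin. Blocking on spike-in class ended the shLSD1 #1 calls of SESN2, EIF4EBP1, RPS6KB2, EMG1, NAT10, RRS1, MRPL39 and MRPS27 (adjusted p between 0.154 and 0.696), and DDIT4 kept its call. With shLSD1 #1 the blocked fit called 1.86% of all clusters, against 15.8% without the block, so losing a call was the general outcome.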

How the data were processed

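Total RNA (100 ng per array) was labelled for 9 Clariom S arrays, per the labels' protocols. The deposited values are log2 signals made by the authors with RMA in Affymetrix Expression Console 1.4, per the submitters' processing notes; base 2 was taken as the RMA default, and the sources used here do not give library files or options. Of 24351 probe sets, 2903 controls were set aside and 21448 clusters tested without a filter. Symbols came from the platform annotation (17709 clusters with 1 symbol, 0 with several, 3739 unnamed), and the 53 member symbols equalled those of RefSeq GRCh38.p14. No member had several clusters.

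All 9 arrays entered one fit of 3 groups in limma 3.58.1 (R 4.3.3; lmFit, eBayes, prior without trend), with two-sided p-values and Benjamini-Hochberg adjustment over all clusters. The members, lists and tests were chosen with earlier results of these data known, and no set test was run. Named were all members past the test, the 6 highest and 6 lowest mean changes, the paralogues with partners, and RPLP1, RPL12, RPL11, RPS6 and RPS19; of other lists, up to 4 genes past the test. The fit was checked on simulated arrays carrying set changes. The number of arrays limits the precision. LSD1 itself is not analysed here, so the knockdown was not checked. Alternatives were other normalizations, filters, priors, array weights, the spike-in class, omission of paralogues and of each array and, chosen after seeing the data, omission of the 2 arrays of widest spread. Plots used matplotlib 3.10.9.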

Additional observations from a re-analysis of the deposited data

How the results depend on the processing

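The 53 members gave 8 calls with shLSD1 #1 and 5 with shLSD1 #2. The trended robust prior gave 26 and 15, and testing only clusters above the negative controls on all 9 arrays gave 18 and 8. For the main fit, this prior and the spike-in block, the share of all clusters called is given above. Counts under the other settings are not set beside such a share, so whether members stood out there was not tested. Dropping the third of clusters of lowest signal gave 13 with shLSD1 #1, over fewer clusters tested. Blocking on spike-in class gave 0 and 2, and 0 with shLSD1 #2 with the high spike-in arrays alone. Among members other than paralogues there were 5 and 2. Without the 2 arrays of widest spread shLSD1 #2 gave 3. Leaving out single arrays gave 4 to 8 calls with shLSD1 #1 and 2 to 5 with shLSD1 #2: 4 without control replicate 1, control replicate 3 or shLSD1 #1 replicate 6 and 5 without shLSD1 #1 replicate 4, then for shLSD1 #2 2 without control replicate 1 or shLSD1 #2 replicate 8 and 3 without control replicate 3. No paired analysis was possible because the arrays are numbered 1 to 9 and no number is shared between groups.

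The median change of the members was -0.13 and -0.06 and became -0.069 and -0.024 after a second quantile normalization; the cause was not tested. It was below 0 in all 21 alternatives for shLSD1 #1 and all 22 for shLSD1 #2, from -0.15 to -0.069 and from -0.10 to -0.024; leaving out single arrays gave -0.15 to -0.12 and -0.10 to -0.05. The large minus small difference of 0.03 and 0.05 became 0.0030 and 0.020 under both filters on dim clusters, which remove RPL10L, 0.0028 for shLSD1 #1 with the block, and -0.048 and -0.025 without the paralogues. Leaving out single arrays gave 0.02 to 0.05 and 0.04 to 0.06. The count of 0 members that differed between hairpins was 0 in all 21 alternatives, with 0 to 12 at an unadjusted p under 0.05 by limma. In the main fit 2 members and 7.87% of all clusters had such a p. For the 24 named members, 936 of 1012 single values kept their side of the threshold, 52 lost it, 24 gained it and 0 called changes turned sign. Some of the 936 could not differ. No member had several clusters, so the alternative that took each gene's cluster of lowest mean repeated the main fit. For single genes, omitting the paralogues did so too. The cluster alternative is also among the 21 and 22 above, where it could not move a result. For shLSD1 #2 against control, blocking on spike-in class and leaving out shLSD1 #2 replicate 8 are the same fit counted as 2 alternatives. The high spike-in arrays alone give the same log2 changes as that fit, with another spread. The 22 and the 1012 thus hold fewer separate checks than their number.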
